A study of Mus musculus with 8 samples.

Results

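Translation initiation and elongation factors are the proteins that bring an mRNA, a start codon and the ribosome together and then drive the ribosome along the message. The genes described here are the 66 loci, of 12193 with values, whose symbols name an initiation factor (Eif1 to Eif6 families, with their kinases, inhibitors and exchange factor), an elongation factor or one of its modifying enzymes (Eef1 and Eef2 families, Eefsec), a termination factor (Etf1, Gspt1) or the poly(A)-binding protein Pabpc1. They were matched by symbol alone, by a rule set with earlier results of these data known, which left out rows whose symbols mark pseudogenes. All 66 are annotated as protein-coding. Of these, 65 reached the filter of at least 1 FPKM in at least 2 libraries and were tested, and Eif4ebp3 was not. Eef2k, the kinase that inhibits eEF2, and Eif2s3y are not analysed here.

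The cells were AtT-20, a mouse pituitary tumour line of corticotrope type, the cell type that makes the ACTH precursor Pomc. The 4 groups had 2 libraries each: cells carrying EGFR given EGF for 3 h, the same line given EGF for 18 h, the same line given water for 3 h, and a control line carrying Neo given water for 3 h. The EGF dose, the species of the introduced receptor and whether either line is 1 clone are not stated in any source used here. No Neo library received EGF, and no water library is labelled 18 h, so at 18 h the time in culture and EGF cannot be told apart. The labels do not say that replicates were separate cultures. Every p-value thus rests on the spread between libraries of the same group, pooled over the groups fitted and possibly technical.

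In the first steps of initiation, eIF2 bound to GTP carries the initiator tRNA to the small ribosomal subunit together with eIF1, eIF1A and eIF3, while eIF4E, eIF4G and eIF4A bring in the capped end of the mRNA. eIF5 triggers GTP hydrolysis by eIF2, eIF2B recharges it, and kinases that phosphorylate the alpha subunit of eIF2 block that recharging. During elongation eEF1A delivers aminoacyl-tRNA, eEF2 moves the ribosome by a codon, eIF5A relieves stalling, and eRF1 (Etf1) with eRF3 (Gspt1) releases the finished chain. Growth factor signals are best known to act on this machinery through phosphorylation of the proteins, which RNA levels do not show.

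Egfr itself had 25.9 and 27.5 FPKM in the EGFR line in water, against 0.227 and 0.0663 FPKM in the Neo line. The corticotrope markers Pomc (6981 to 8929.5 FPKM) and Tbx19 (83.8 to 113 FPKM) were present in all 8 libraries. So were Pcsk1 (353 to 443 FPKM) and, at lower levels, Neurod1 (10.5 to 13.5 FPKM) and Pitx1 (10.1 to 12.1 FPKM). Crhr1 and Avpr1b, also on the list of corticotrope markers, had no values. FPKM counts fragments relative to transcript length and to the library's fragments. The summed FPKM of the 66 genes was 9579 to 10107 across libraries, which was 2.26 to 2.33% of the protein-coding sum in every one of them. Small RNA genes took 39.0 and 33.2% of all FPKM in the Neo libraries and 29.1 to 32.8% in the other 6, and their part in the results was not tested. No source used here states read depth, so precision was read from replicates: over the 65 tested factors and the groups the replicate coefficient of variation had a median of 1.99% and reached at most 16.1%. Levels are from bulk RNA, in which fewer cells of a type and less RNA per cell cannot be told apart.

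The machinery was strongly expressed, but its members differed widely in level per length. Eef1a1, the main carrier of aminoacyl-tRNA, averaged 2623 FPKM over the 8 libraries and made up 26.42% of the summed FPKM of the 66 genes. The top 5 genes (Eef1a1, Eef2, Eif4a1, Eef1b2 and Eif5a) made up 47.58%. In all, 28 genes averaged at least 100 FPKM, and 8 lay under 10 FPKM. The highest member of each role was Eif3i for eIF3 (240.8 FPKM), the helicase Eif4a1 for eIF4 (582.6 FPKM), Eif2s2 among the ternary complex and scanning factors (130.0 FPKM) and Eif5a for the subunit joining and eIF5A group (411.1 FPKM). The 4 kinases of eIF2 alpha were low, between 4.76 FPKM for Eif2ak4, the amino acid sensor GCN2, and 12.3 FPKM for Eif2ak1, the haem-regulated kinase HRI. Among the inhibitors of eIF4E, Eif4ebp1 averaged 146.8 FPKM, while Eif4ebp3 averaged 0.0798 FPKM and was at or near 0 in 2 libraries.

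**Figure D1:**
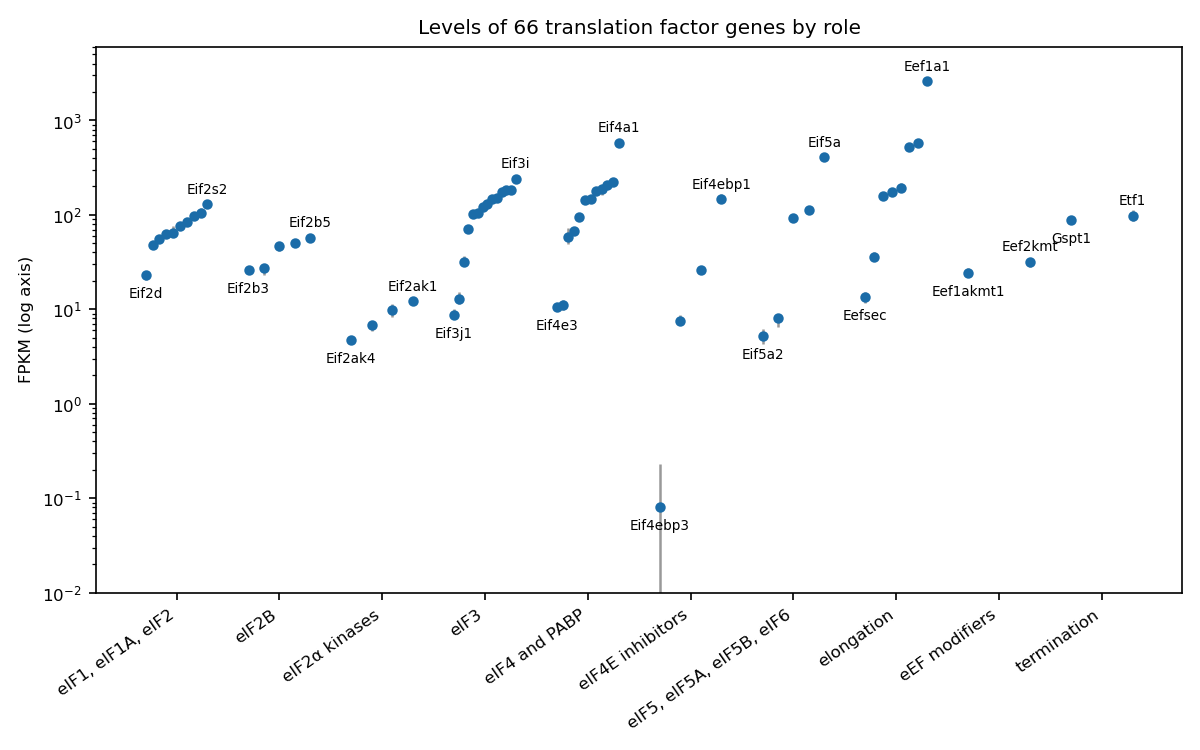
Mean FPKM over all 8 libraries (points, log axis) of the 66 genes by role, with the range over libraries as grey lines, often shorter than the point. Eef1a1 stands highest at 2623 FPKM, and Eif4ebp3 lowest at 0.0798 FPKM, with 2 libraries below the axis.

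Many of these genes have near-identical copies in the mouse genome. Counting at least 95% identity over at least 200 bases, 20 of the 66 shared at least 20% of a transcript with another locus that has values, among them Eef1a1, Eef2, Eef1g, Eif4a1, Eif4e and the 3 eIF2 subunits, so their levels depend on how shared reads were assigned. The 20 include Eef2kmt (with Alg1), Eif1ad (with Banf1) and Eif3d (with Gm17638), whose exons overlap the other locus on the other strand. Those matches are shared genomic bases rather than copies. Eif3j1 and Eif3j2 were 99.41% identical over 2369 bases and are not independent, though counted as 2 genes. The pseudogene Eif4a-ps4 was listed at 188 to 219 FPKM, beside the 582.6 FPKM of Eif4a1.

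After 3 h of EGF, 14 of the 65 tested factors were higher than in water (21.5%, against 11.8% of all 10874 tested genes) and 5 were lower (7.69%, against 19.7%), which is 29.2% in either direction, against 31.5%. Called here and below means a limma adjusted p under 0.05 on log2(FPKM + 1), a scale that understates changes of genes with low FPKM. The higher genes included start-site selection factors (Eif1a, Eif1b, Eif5), both termination factors and the J subunit of eIF3, whereas elongation factors other than Eef1e1 were not called. All changes were small: the largest log2 fold change of any factor in the 4 comparisons was 0.41 in size. The median log2 fold change at 3 h was −0.01 over the 65 factors and −0.04 over all tested genes. Without overlap between the 2 libraries of each group, 22 of 65 factors were higher and 22 lower, against 2908 (26.7%) and 4760 (43.8%) of all 10874 genes.

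**Figure D2:**
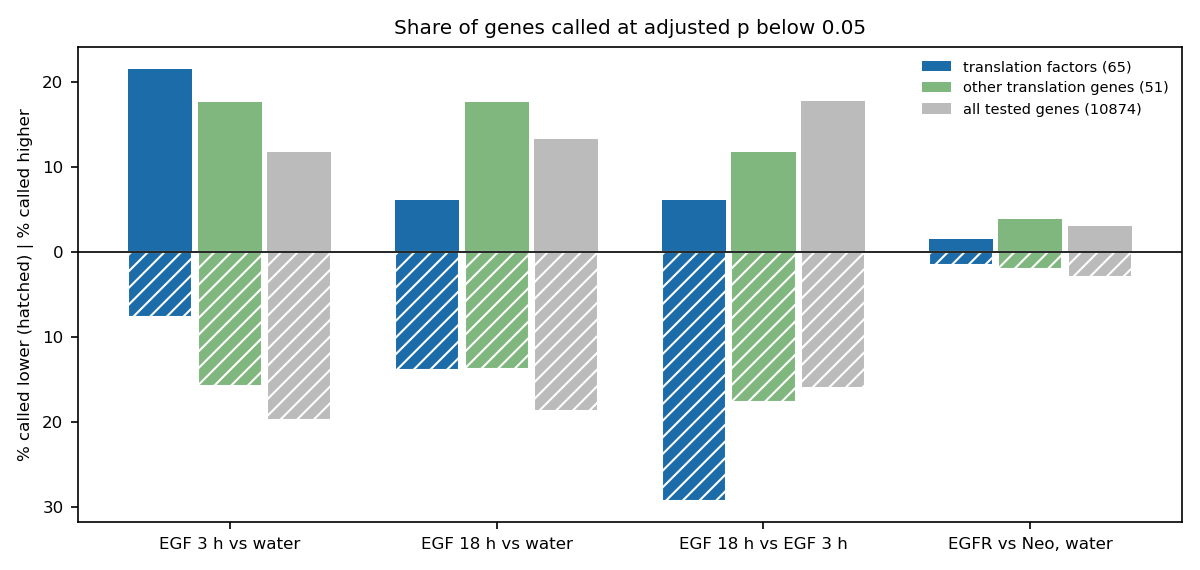
Percent of the 65 translation factors, of 51 other translation genes and of all 10874 tested genes called higher (solid, upward) or lower (hatched, downward) in each comparison. At 3 h of EGF 21.5% of factors were higher and 7.69% lower, and between 18 h and 3 h 6.15% were higher and 29.2% lower.

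Etf1 (ENSMUSG00000024360, chr18:34902785-34932007, minus strand; all coordinates here are 1-based on mm10), which encodes the release factor eRF1 that reads all stop codons, had 94.3 and 93.3 FPKM in water, 114 and 113 FPKM after 3 h of EGF and 86.1 and 89.8 FPKM after 18 h. Both 3 h libraries lay above the other 6 libraries of the study. The rise at 3 h had a log2 fold change of 0.27 ± 0.0423 (SE) and limma adjusted p = 0.00419. Its partner Gspt1, the GTPase eRF3a, had 96.1 and 90.2 FPKM after 3 h of EGF and 84.5 and 86.1 FPKM in water, with a log2 fold change of 0.12 ± 0.039 (SE) and limma adjusted p = 0.0467.

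Among the factors that set the start codon, Eif1a (chr18:46597704-46610225, plus strand), an autosomal gene for eIF1A, had 61.1 and 59.4 FPKM in water, 75.5 and 73.4 FPKM after 3 h of EGF and 65.2 and 66.7 FPKM after 18 h. The 3 groups did not overlap, and the 3 h group was the highest. Its 3 h rise had a log2 fold change of 0.30 ± 0.04 (SE) and limma adjusted p = 0.00237. Its X-linked relative Eif1ax was not called, with 85.2 and 84.8 FPKM after 3 h of EGF and 88.9 and 90.9 FPKM in water and a log2 fold change of −0.08 (adjusted p = 0.0747). Eif1b, a relative of the start-codon gatekeeper eIF1, had 64.99 and 68.9 FPKM after 3 h of EGF and 60.4 and 59.7 FPKM in water and a log2 fold change of 0.15 ± 0.0378 (SE) and limma adjusted p = 0.0211. Eif1 itself differed by 0.01 on the log2 scale (95% interval −0.12 to 0.14).

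Eif5 (chr12:111538101-111546753, plus strand), whose product activates the GTPase of eIF2 at the start codon, had 87.2 and 84.8 FPKM in water, 101 and 102 FPKM after 3 h of EGF and 93.1 and 97.8 FPKM after 18 h. It rose at 3 h with a log2 fold change of 0.23 ± 0.0345 (SE) and limma adjusted p = 0.00347, and every EGF library lay above both water libraries. Of the 3 subunits of eIF2, Eif2s2 (beta) was called, with 136 and 137 FPKM after 3 h of EGF and 127 and 127 FPKM in water and a log2 fold change of 0.10 (adjusted p = 0.0401). Eif2s1 (alpha) had 82.03 and 81.1 FPKM after 3 h of EGF and 76.4 and 75.7 FPKM in water and missed the threshold, with a log2 fold change of 0.10 (adjusted p = 0.0508). Eif2s3x (gamma) also missed it, at 0.05 (adjusted p = 0.317). Eif2d, which can place tRNA at the ribosome without eIF2, fell to 20.6 and 22.02 FPKM after 3 h of EGF, against 23.6 and 23.98 FPKM in water (log2 fold change −0.15, adjusted p = 0.0289).

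Eif5a2 (chr3:28781276-28798846, plus strand), the less abundant isoform of eIF5A, had 5.15 and 4.82 FPKM in water, 6.24 and 6.14 FPKM after 3 h of EGF and 4.46 and 4.34 FPKM after 18 h. Its 3 h rise had a log2 fold change of 0.27 ± 0.0552 (SE) and limma adjusted p = 0.012. The abundant isoform Eif5a had 402 and 418 FPKM after 3 h of EGF and 415 and 419.6 FPKM in water and was not called (log2 fold change −0.03, adjusted p = 0.592).

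In eIF3, the scaffold that holds the small subunit open for the mRNA, 3 of 14 subunit genes were higher at 3 h and the other 11 were not called. Eif3j2 (chr18:43475418-43477796, minus strand) had 15.4 and 14.6 FPKM after 3 h of EGF and 11.5 and 11.5 FPKM in water, with a log2 fold change of 0.36 ± 0.0432 (SE) and limma adjusted p = 0.00165. Eif3j1 (chr2:122028546-122056598, plus strand) had 10.0 and 9.55 FPKM after 3 h of EGF and 7.996 and 7.94 FPKM in water, with a log2 fold change of 0.27 ± 0.0407 (SE) and limma adjusted p = 0.00407. Both name the loosely bound J subunit, which acts in the decoding centre. The third was Eif3a, the largest core subunit, with 75.1 and 75.8 FPKM after 3 h of EGF and 69.4 and 68.01 FPKM in water and a log2 fold change of 0.13 (adjusted p = 0.0484). The subunits that were not called had log2 fold changes between −0.11 for Eif3i and 0.02 for Eif3c.

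Within the cap-binding and scaffold group, Eif4g2 (DAP5, an eIF4G relative that lacks the eIF4E site) was called higher among 12 genes, with 223 and 217 FPKM after 3 h of EGF and 201 and 196 FPKM in water and a log2 fold change of 0.15 (adjusted p = 0.0121). The cap-binding protein Eif4e had 154 and 149 FPKM after 3 h of EGF and 143 and 141 FPKM in water (0.10, adjusted p = 0.115), the scaffold Eif4g1 185 and 183 FPKM after 3 h of EGF and 173 and 176 FPKM in water (0.07, adjusted p = 0.127) and the helicase Eif4a1 595 and 638 FPKM after 3 h of EGF and 609 and 596 FPKM in water (0.03, adjusted p = 0.611). None of these passed the test, nor did Pabpc1, with 57.1 and 56.9 FPKM after 3 h of EGF and 55.5 and 49.7 FPKM in water (0.12, adjusted p = 0.387). The tested inhibitors of eIF4E (Eif4ebp1, Eif4ebp2 and Eif4enif1) were likewise not called in any comparison, and Eif4ebp1 had 132 and 142 FPKM after 3 h of EGF and 144 and 146 FPKM in water (−0.08, adjusted p = 0.397).

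The 4 kinases of eIF2 alpha split at 3 h. Eif2ak2, the double-stranded RNA sensor PKR, rose to 7.59 and 7.61 FPKM, against 6.51 and 6.55 FPKM in water (log2 fold change 0.19, adjusted p = 0.0135). Eif2ak4 rose to 5.19 and 5.18 FPKM, against 4.58 and 4.39 FPKM (0.17, adjusted p = 0.0272). Eif2ak3, the endoplasmic reticulum stress kinase PERK, fell to 8.35 and 8.74 FPKM, against 9.78 and 9.65 FPKM (−0.17, adjusted p = 0.0334). Eif2ak1 was not called (−0.15, adjusted p = 0.0592). Of the 5 subunits of the exchange factor eIF2B, which these kinases restrain through eIF2, Eif2b2 (beta) fell to 44.7 and 41.5 FPKM after 3 h of EGF, against 51.0 and 49.5 FPKM in water (−0.22, adjusted p = 0.0115), and the other 4 were not called.

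Of 8 elongation factor genes, 1 was called at 3 h. Eef1a1 had 2411 and 2607 FPKM after 3 h of EGF and 2709 and 2648 FPKM in water (−0.10, adjusted p = 0.214), and the translocase Eef2 had 531 and 570.3 FPKM after 3 h of EGF and 575 and 565 FPKM in water (−0.05, adjusted p = 0.397). The 7 elongation genes that were not called had log2 fold changes of −0.16 to −0.05. The exception was Eef1e1, known as AIMP3, a scaffold of the aminoacyl-tRNA synthetase complex, which rose to 40.7 and 39.6 FPKM, against 36.8 and 34.5 FPKM (0.17, adjusted p = 0.0359). Both methyltransferases of elongation factors fell: Eef1akmt1, which modifies eEF1A, had 23.1 and 23.2 FPKM after 3 h of EGF and 27.7 and 25.8 FPKM in water (−0.20, adjusted p = 0.0215), and Eef2kmt, which modifies eEF2, had 27.96 and 29.7 FPKM after 3 h of EGF and 32.7 and 33.4 FPKM in water (−0.19, adjusted p = 0.0274). Eef2kmt shares 17.6% of its exon bases with Alg1 on the other strand, and without a stated strand setting those reads cannot be told apart.

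The 3 h calls rested on few libraries. The 14 higher and 5 lower calls became 6 and 0 without water replicate 1, 5 and 2 without water replicate 2, 7 and 1 without 3 h EGF replicate 1, and 9 and 9 without 3 h EGF replicate 2. Scaling also moved the split, to 16 higher and 4 lower with median-ratio scaling and to 12 higher and 0 lower with scaling to a common sum. Across all genes those scalings gave 1772 higher and 1562 lower, and 1346 higher and 440 lower, beside 1283 and 2142 as deposited, and the 4 fits without a library gave 677 and 804, 610 and 822, 768 and 940, and 1056 and 2296. The 5 higher calls of Etf1, Eif5, Eif1a, Eif3j2 and Eif3j1 held under all 17 alternatives, and 0 of the 5 lower calls did. Gspt1 (adjusted p = 0.0634 without Neo replicate 1 as without Neo replicate 2), Eif3a and Eif2s2 lost the call most readily, and Eif5a2 lost it without water replicate 2 and without 3 h EGF replicate 1. Of the 46 factors not called at 3 h, 11 passed under at least 1 alternative, among them Eif2s1 and Eif4a2 under 4 each (lowest adjusted p = 0.0196 and 0.0227) and Eif4g1 with median-ratio scaling (adjusted p = 0.0378).

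**Figure D3:**
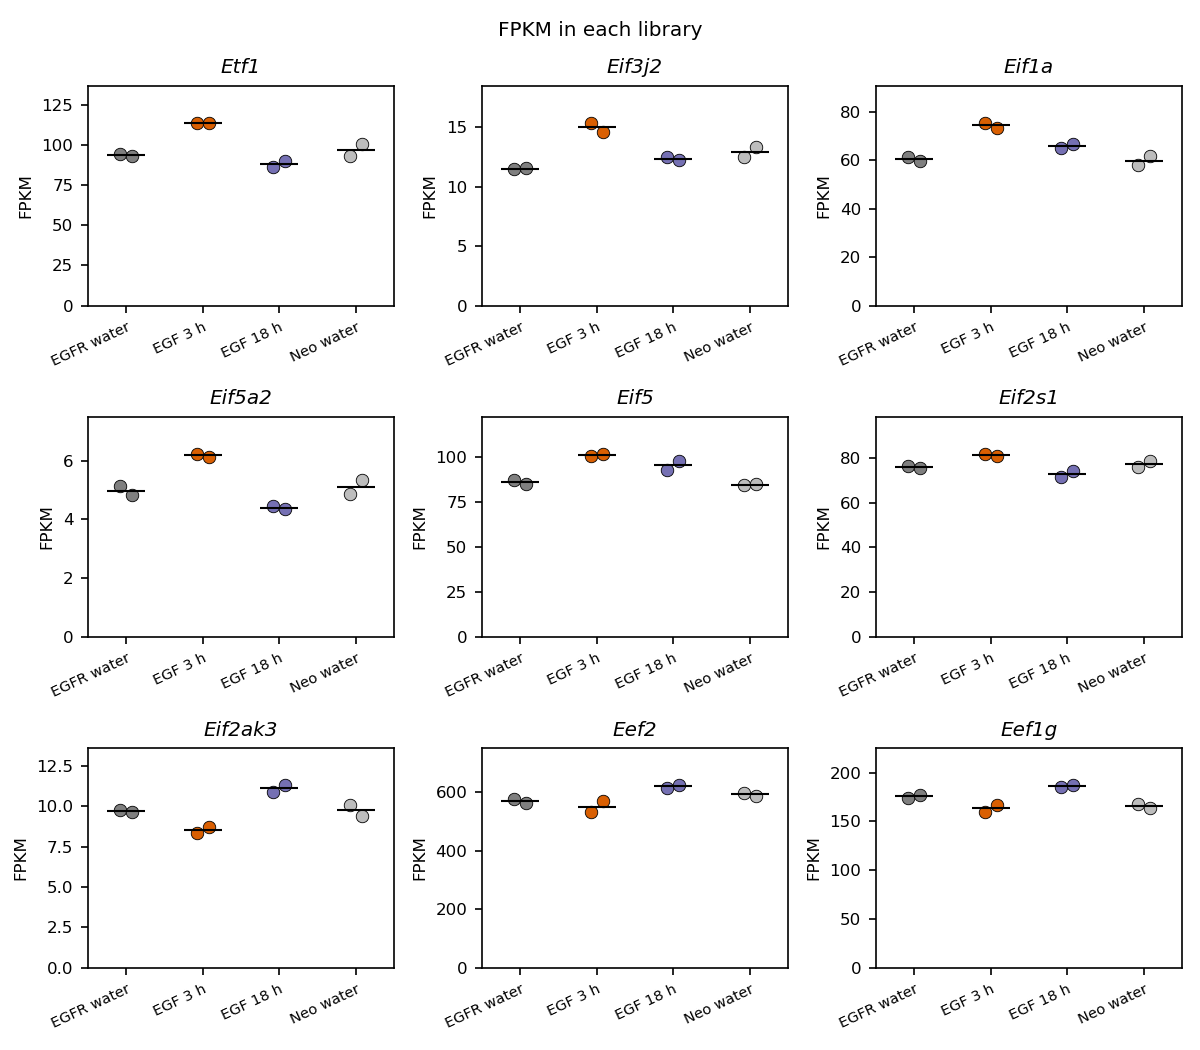
FPKM of 9 translation factors in each library (points) with the group mean (line) for EGFR cells in water, after 3 h and after 18 h of EGF, and for Neo cells in water. For Etf1 the 3 h libraries stand above the other 6, and for Eif2ak3 the 18 h libraries are the highest and the 3 h libraries the lowest.

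The start regions of 4 called genes with a RefSeq entry are shown because they differ in the motifs they hold. Each is the 250 bases before the RefSeq transcript start on GRCm38.p6 (mm10), 5′ to 3′, with capitals for the E-box CACGTG bound by MYC, MAX and USF proteins, and for the ETS motif CCGGAAG, searched on both strands. Eif5a2, Eif1b and Eif5 were higher at 3 h, and Eef2 was higher at 18 h than at 3 h.
Eif5a2 (chr3:28781027-28781276, plus strand): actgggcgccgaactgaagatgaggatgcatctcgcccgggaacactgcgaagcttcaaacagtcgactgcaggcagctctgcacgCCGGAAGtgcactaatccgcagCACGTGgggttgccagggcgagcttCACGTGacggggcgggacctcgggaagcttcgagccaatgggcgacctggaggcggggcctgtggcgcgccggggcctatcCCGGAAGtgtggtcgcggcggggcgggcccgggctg
Eif1b (chr9:120492356-120492605, plus strand): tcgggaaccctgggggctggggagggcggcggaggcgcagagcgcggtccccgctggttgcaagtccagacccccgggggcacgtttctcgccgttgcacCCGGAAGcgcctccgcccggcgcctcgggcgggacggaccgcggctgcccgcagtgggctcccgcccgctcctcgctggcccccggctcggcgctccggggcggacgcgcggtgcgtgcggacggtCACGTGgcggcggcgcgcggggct
Eif5 (chr12:111537851-111538100, plus strand): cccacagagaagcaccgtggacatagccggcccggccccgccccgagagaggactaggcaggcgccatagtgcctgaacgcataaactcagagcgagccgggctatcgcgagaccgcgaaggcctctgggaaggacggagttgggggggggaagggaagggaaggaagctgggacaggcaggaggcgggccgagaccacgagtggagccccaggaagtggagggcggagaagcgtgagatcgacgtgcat
Eef2 (chr10:81176381-81176630, plus strand): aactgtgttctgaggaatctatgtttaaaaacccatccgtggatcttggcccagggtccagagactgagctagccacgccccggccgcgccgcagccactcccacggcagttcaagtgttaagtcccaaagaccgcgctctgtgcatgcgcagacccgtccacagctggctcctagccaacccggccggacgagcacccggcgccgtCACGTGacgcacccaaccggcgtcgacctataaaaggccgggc

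Eif5a2 holds 2 E-boxes, beginning 142 and 117 bases before the start, and 2 ETS motifs, at 164 and 36 bases before it. Eif1b holds an E-box at 24 bases and an ETS motif at 150 bases before the start, and Eef2 an E-box at 43 bases, whereas Eif5 holds none of these letters in this window. In the RefSeq windows from 250 bases before to 50 bases after the start, 50 of the 66 genes had an entry. An E-box lay in 22.0% of those 50 genes, beside 12.4% of 7033 tested protein-coding genes, and the ETS motif in 36.0%, beside 23.3%. TGATGCA, a motif of C/EBP-ATF dimers, lay in 1 of the 50 genes, beside 2.39%. The 10 genes with an entry among those higher at 3 h held an E-box in 3 genes and an ETS motif in 3 genes. The E-box CACGTG is palindromic, the motifs do not overlap one another, and these matches describe letters in a window only.

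By 18 h of EGF, 4 of 65 factors were higher than in water (6.15%, against 13.2% of all tested genes) and 9 were lower (13.8%, against 18.7%), together 13 of 65, against 31.9% in either direction. The comparison shares its water libraries with the one at 3 h. Higher at 18 h were Eif2ak3, Eif5, Eif4g1 and Eif1a, and lower were Eif2b1, Eif4a3, Eef1akmt1, Eif1ad, Eif2b2, Eif3e, Eif3m, Eif2a and Eif2s3x. The median log2 fold change was −0.04 over the factors and −0.03 over all genes. The 2 libraries of each group did not overlap for 18 higher and 37 lower of 65 factors, beside 3143 (28.9%) and 4683 (43.1%) of all 10874 genes. By this measure the lower share of the factors was above that of all genes, whereas the share called lower was below it.

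The start-site factors Eif5 and Eif1a had log2 fold changes against water of 0.15 (adjusted p = 0.0163) and 0.13 (adjusted p = 0.0467) at 18 h. Eif4g1 had 195 and 188 FPKM after 18 h of EGF and 173 and 176 FPKM in water, with a log2 fold change of 0.14 ± 0.0328 (SE) and limma adjusted p = 0.0184. Its product is the scaffold that joins the cap-binding protein, the helicase and eIF3.

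On the lower side, 2 of the 5 eIF2B subunits were called: Eif2b1 (alpha) fell to 24.7 and 23.3 FPKM after 18 h of EGF, against 28.9 and 28.1 FPKM in water, with a log2 fold change of −0.24 ± 0.0459 (SE) and limma adjusted p = 0.00793. Eif2b2 had 44.4 and 44.3 FPKM after 18 h of EGF and 51.0 and 49.5 FPKM in water (−0.18, adjusted p = 0.0215). The other 3 subunits were not called, with log2 fold changes of −0.11 for Eif2b5, −0.12 for Eif2b4 and −0.01 for Eif2b3. Eif4a3, the helicase that anchors the exon junction complex rather than a cap-binding subunit, fell to 176 and 164 FPKM, against 199.9 and 193 FPKM in water (−0.21, adjusted p = 0.00961).

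Eif1ad, which resembles eIF1A and shares 15.3% of its exon bases with Banf1 on the other strand, fell to 50.99 and 51.7 FPKM, against 58.6 and 59.3 FPKM in water (−0.20, adjusted p = 0.00732). Within eIF3, Eif3e and Eif3m fell, with log2 fold changes of −0.14 (adjusted p = 0.013) and −0.13 (adjusted p = 0.043). Both have pseudogene or copy loci with values. Eif2a, an alternative carrier of initiator tRNA, and Eif2s3x fell by 0.13 and 0.11 on the log2 scale (adjusted p = 0.0174 and 0.046). Eef1akmt1 fell to 22.5 and 23.8 FPKM, against 27.7 and 25.8 FPKM in water (−0.20, adjusted p = 0.0196). Eif4e (−0.08, adjusted p = 0.163), Eif4a1 (−0.14, adjusted p = 0.0567), Eef1a1 (−0.03, adjusted p = 0.758), Eef2 (0.12, adjusted p = 0.065), Eif5a (−0.06, adjusted p = 0.215) and Pabpc1 (0.17, adjusted p = 0.227) did not pass the test against water at 18 h.

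Counts at 18 h depended strongly on single libraries and on scaling. Without water replicate 1 they were 0 higher and 1 lower, without water replicate 2 0 and 3, without 18 h EGF replicate 1 1 and 2, and without 18 h EGF replicate 2 1 and 3. Median-ratio scaling gave 6 higher and 6 lower, and scaling to a common sum 1 and 0. All genes, beside 1437 higher and 2030 lower, gave 865 and 925, 871 and 1050, 849 and 967, and 923 and 1156 without those libraries, 1857 and 1610 with median-ratio scaling and 1189 and 705 with scaling to a common sum. No single call at 18 h against water held under all 17 alternatives. Of the 52 factors not called, 8 passed under at least 1 of them, among them Eef2 under 5 (lowest adjusted p = 0.01) and Eif4a1 and Eif2b5 under 4 each (0.0251 and 0.0374).

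The direct test of the change between the EGF times, in which the water libraries play no part in the difference, called 4 factors higher (6.15%, against 17.7% of all genes) and 19 lower at 18 h than at 3 h (29.2%, against 16.0%), 35.4% in either direction against 33.7%. The lower set held the start-site selection factors Eif1a and Eif1b, all 3 subunits of eIF2, both termination factors and the eIF4E and eIF4A1 genes. The higher set was Eif2ak3, Eef2kmt, Eef1g and Eef2. Eif5 was not called (log2 fold change −0.09, adjusted p = 0.0937). Eif1 (−0.04, adjusted p = 0.64) and Eif1ax (0.01, adjusted p = 0.815) were not called either. The comparison shares its 3 h libraries with that of 3 h against water. The median log2 fold change was −0.04 over the factors, against 0.01 over all genes. Libraries did not overlap for 15 higher and 31 lower of 65 factors, beside 3829 (35.2%) and 3601 (33.1%) of all 10874 genes.

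The largest decrease was that of Eif5a2, with 4.46 and 4.34 FPKM after 18 h of EGF and 6.24 and 6.14 FPKM after 3 h of EGF, a log2 fold change of −0.41 ± 0.0552 (SE) and limma adjusted p = 0.00224. Etf1 fell to 86.1 and 89.8 FPKM after 18 h, against 114 and 113 FPKM after 3 h, with a log2 fold change of −0.37 ± 0.0423 (SE) and limma adjusted p = 0.00137. At 18 h Etf1 did not differ from water beyond the threshold (log2 fold change −0.09, adjusted p = 0.137). Gspt1 fell likewise, with a log2 fold change of −0.18 (adjusted p = 0.0127).

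All 3 subunits of eIF2 were lower at 18 h than at 3 h. Eif2s1 had 71.8 and 74.1 FPKM after 18 h of EGF and 82.03 and 81.1 FPKM after 3 h of EGF (−0.16, adjusted p = 0.00974), Eif2s2 had 123 and 123 FPKM after 18 h of EGF and 136 and 137 FPKM after 3 h of EGF (−0.15, adjusted p = 0.00968) and Eif2s3x had 90.7 and 92.5 FPKM after 18 h of EGF and 103 and 102 FPKM after 3 h of EGF (−0.16, adjusted p = 0.013). The start-site factors Eif1b and Eif1a fell by 0.21 and 0.17 on the log2 scale (limma adjusted p = 0.00698 and 0.016). Eif1ad, which resembles eIF1A, fell by 0.20 (limma adjusted p = 0.00673). Eif2a fell by 0.13 (adjusted p = 0.0176). In total 7 of the 10 genes of the ternary complex and scanning group, in which Eif1ad was counted, were lower, and the other 3 were not called. The share called lower was 70%, against 16.0% of all tested genes. With scaling to a common sum the calls of Eif2s1, Eif2s2, Eif2s3x, Eif1a and Eif2a were lost.

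In the eIF4 group, 4 of 12 genes were lower (33.3%, against 16.0% of all tested genes) and the other 8 were not called. All 4 calls were lost with scaling to a common sum. Eif4e had 134 and 134 FPKM after 18 h of EGF and 154 and 149 FPKM after 3 h of EGF, with a log2 fold change of −0.18 ± 0.0413 (SE) and limma adjusted p = 0.0156. Eif4a1 had 538 and 559.9 FPKM after 18 h of EGF and 595 and 638 FPKM after 3 h of EGF and a log2 fold change of −0.17 (adjusted p = 0.0271), while Eif4a-ps4 had 188 and 196 FPKM after 18 h and 206 and 219 FPKM after 3 h. The others were Eif4a3 (−0.14, adjusted p = 0.036) and Eif4g2 (−0.11, adjusted p = 0.0311), while Eif4g1 was not called (0.06, adjusted p = 0.177). Among eIF3 genes Eif3j2, Eif3j1 and Eif3e fell, with log2 fold changes of −0.26 (adjusted p = 0.00474), −0.20 (adjusted p = 0.00967) and −0.12 (adjusted p = 0.0257). Eif2b1 (−0.20, adjusted p = 0.0169) was the 1 subunit of eIF2B called, and Eef1e1 fell by 0.21 (adjusted p = 0.0158).

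Eif2ak3 (chr6:70844515-70905245, plus strand), the PERK kinase, went the other way. It had 9.78 and 9.65 FPKM in water, 8.35 and 8.74 FPKM after 3 h of EGF and 10.9 and 11.3 FPKM after 18 h, so it lay below water at 3 h and above it at 18 h, with no overlap between the groups. From 3 h to 18 h it rose with a log2 fold change of 0.34 ± 0.047 (SE) and limma adjusted p = 0.0025, and against water at 18 h it had a log2 fold change of 0.17 (adjusted p = 0.0276). The other 3 kinases were not called between the times.

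Eef2 (chr10:81176631-81182507, plus strand) had 575 and 565 FPKM in water, 531 and 570.3 FPKM after 3 h of EGF and 615 and 626 FPKM after 18 h. The rise between the times had a log2 fold change of 0.17 ± 0.0429 (SE) and limma adjusted p = 0.0204. Eef1g, the gamma subunit of the exchange complex that recharges eEF1A, had 186 and 188 FPKM after 18 h of EGF and 159.8 and 167 FPKM after 3 h of EGF, with a log2 fold change of 0.19 ± 0.035 (SE) and limma adjusted p = 0.00699. Eef2kmt rose between the times with a log2 fold change of 0.23 (adjusted p = 0.0135). Eef1a1 (0.07, adjusted p = 0.355), Eif5a (−0.04, adjusted p = 0.462), Eif4ebp1 (0.14, adjusted p = 0.158) and Pabpc1 (0.05, adjusted p = 0.717) were not called.

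The counts of 4 higher and 19 lower became 2 and 12 without 3 h EGF replicate 1, 2 and 9 without 18 h EGF replicate 1, and 2 and 10 without 18 h EGF replicate 2. They were 5 and 21 with median-ratio scaling and 2 and 9 with scaling to a common sum. All genes, beside 1922 higher and 1741 lower, gave 1130 and 1227, 1050 and 813, and 1060 and 918 without those libraries, 1990 and 1913 with median-ratio scaling and 863 and 1330 with scaling to a common sum. Of the 42 factors not called, 8 passed under at least 1 alternative. The calls of Etf1, Eif5a2, Eif3j2, Eif1b and Eif1ad (lower) and of Eif2ak3 (higher) held under all 17 alternatives, whereas that of Eef2 was lost without 3 h EGF replicate 1 and without either 18 h library. With scaling to a common sum 12 of the 23 calls were lost (limma adjusted p = 0.0591 to 0.207), among them those of the 3 eIF2 subunits, Eif4e, Eif4a1, Eef2 and Eef1g. The 3 h replicates acted unequally. Leaving out 3 h EGF replicate 1 gave a median log2 fold change of −0.07 over the factors and −0.01 over all genes. Leaving out 3 h EGF replicate 2 gave −0.01 and 0.03.

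**Figure D4:**
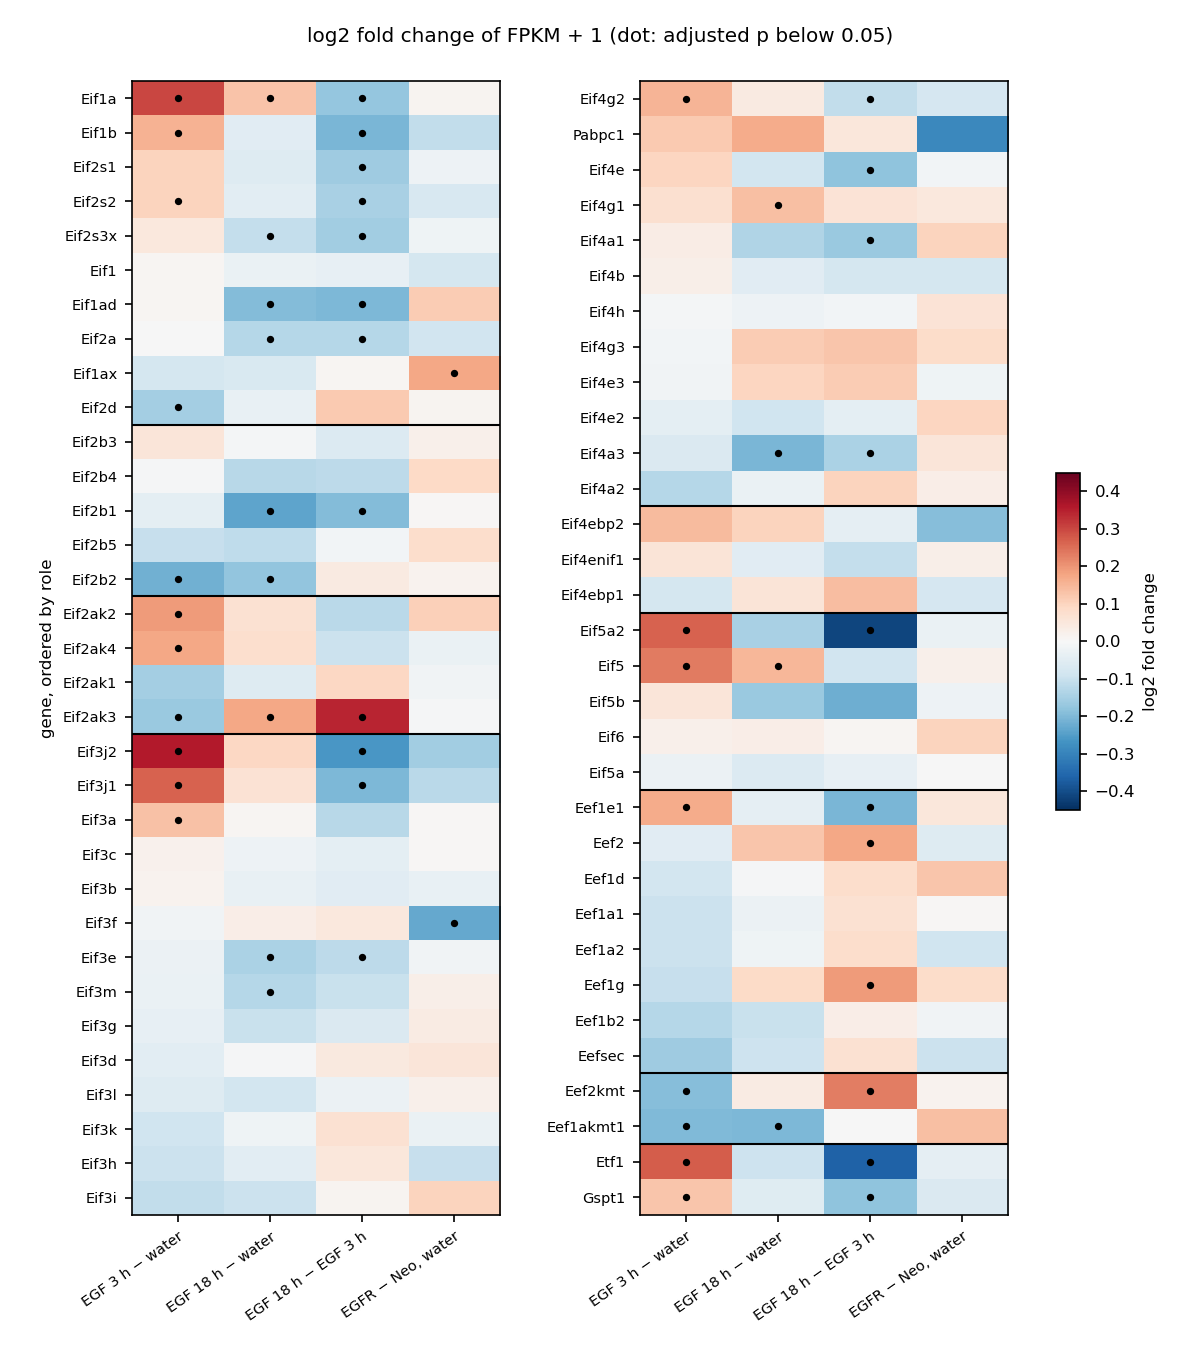
Log2 fold change of FPKM + 1 (colour) of the 65 tested factors in the 4 comparisons, by role (black lines) and by the 3 h value within a role, with a dot for limma adjusted p below 0.05. Dots gather in red at 3 h against water (14 red, 5 blue) and in blue at 18 h against 3 h (19 blue, 4 red).

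Across the 8 libraries Etf1 varied most like Eif2s1 (Pearson r of log2(FPKM + 1) 0.978), Eif5a2 (0.975) and Eif4e (0.933). Eif5a2 was most like Etf1, Eif2s1 (0.961) and Eif4e (0.956). These are descriptions over 8 libraries, of which each pair shares a line and a treatment.

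Without added ligand, few of these genes were called between the EGFR and the Neo line. In water 1 of 65 factors was higher (1.54%, against 3.11% of all genes) and 1 was lower (1.54%, against 2.90%), which is 3.08% in either direction, against 6.01%. Libraries did not overlap for 17 higher and 16 lower of 65 factors, beside 3654 (33.6%) and 2635 (24.2%) of all 10874 genes. Eif1ax, the X-linked gene for eIF1A, had 88.9 and 90.9 FPKM in the EGFR line and 80.5 and 78.7 FPKM in the Neo line, with a log2 fold change of 0.17 ± 0.0292 (SE) and limma adjusted p = 0.0219. Eif3f, an eIF3 subunit, had 29.7 and 30.9 FPKM in the EGFR line and 36.9 and 34.5 FPKM in the Neo line, with a log2 fold change of −0.23 ± 0.0442 (SE) and limma adjusted p = 0.0318. Both calls were lost without water replicate 1, water replicate 2, Neo replicate 1 or either 18 h EGF library (adjusted p = 0.0504 to 0.18), and without Neo replicate 2 the counts were 0 higher and 2 lower. The largest difference in size was that of Pabpc1, 55.5 and 49.7 FPKM in the EGFR line and 72.2 and 57.5 FPKM in the Neo line, which did not pass the test (log2 fold change −0.29, adjusted p = 0.124). Eef1a1 (0.00, adjusted p = 0.964), Eef2 (−0.06, adjusted p = 0.436), Eif4e (−0.01, adjusted p = 0.891), Eif2s1 (−0.02, adjusted p = 0.689) and Eif4g1 (0.05, adjusted p = 0.401) were not called. The small RNA share given above was higher in both Neo libraries than in both EGFR water libraries. With scaling to a common sum 1 factor was higher and 0 were lower, beside 309 and 103 of all genes (338 and 315 as deposited), and Eif3f lost its call (adjusted p = 0.113). Of the 63 factors not called, Pabpc1 passed without Neo replicate 2 (adjusted p = 0.0322).

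Outside the factors themselves, 51 other genes of translation and its control had values. At 3 h 9 were higher and 8 lower (33.3% called, against 31.5% of all genes), at 18 h against water 9 and 7 (31.4%, against 31.9%), at 18 h against 3 h 6 and 9 (29.4%, against 33.7%), and in the EGFR line against the Neo line 2 and 1 (5.88%, against 6.01%). In all, 21 of the 51 genes were called in none of the 4, beside 31 of the 65 factors. How usual this is among all tested genes was not tested. Of the 51 calls in these genes 7 held under all 17 alternatives, beside 11 of the 57 calls in the factors. None of the 51 changed sign, and 29 were lost with scaling to a common sum. Pdcd4, an inhibitor of the eIF4A helicase that growth signals are known to mark for degradation, had 22.2 and 22.1 FPKM in water, 18.01 and 19.3 FPKM after 3 h of EGF and 29.2 and 30.4 FPKM after 18 h. It was thus lower at 3 h (log2 fold change −0.23, adjusted p = 0.00891) and higher at 18 h (0.41, adjusted p = 0.000612), and between the times it had a log2 fold change of 0.65 ± 0.0446 (SE) and limma adjusted p = 0.000197. In size that log2 fold change was above the largest of any of the 65 factors (0.41).

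Rps6ka3, an S6 kinase of the RSK family activated by ERK, had 3.91 and 3.598 FPKM in water, 5.18 and 5.06 FPKM after 3 h of EGF and 4.52 and 4.24 FPKM after 18 h, and rose at 3 h with a log2 fold change of 0.37 (adjusted p = 0.00364). Ddx3x, a helicase that helps scanning through structured leaders, rose to 181 and 166 FPKM after 3 h, against 146 and 146 FPKM in water (0.24, adjusted p = 0.0109). The mRNA-binding Larp4 (0.28, adjusted p = 0.0209) and Ppp1r15b, which helps dephosphorylate eIF2 alpha (0.18, adjusted p = 0.00833), also rose. Atf4, the transcription factor translated when eIF2 alpha is phosphorylated, fell to 192 and 196 FPKM after 3 h, against 230.5 and 227 FPKM in water (−0.24, adjusted p = 0.00304), and was still lower at 18 h (−0.20, adjusted p = 0.00414). Gtpbp1 (−0.23, adjusted p = 0.00543) and the Pabpc1 inhibitor Paip2 (−0.20, adjusted p = 0.0077) fell at 3 h. With scaling to a common sum the 3 h falls of Pdcd4, Atf4, Gtpbp1 and Paip2 all lost their call (adjusted p = 0.0957 to 0.261). The 3 h rise of Rps6ka3 held under all 17 alternatives, and those of Ddx3x, Larp4 and Ppp1r15b were each lost without water replicate 2.

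At 18 h the eIF4E kinases Mknk1 and Mknk2, which MAP kinases activate, were higher than in water. Mknk1 had 17.5 and 15.7 FPKM after 18 h of EGF and 13.6 and 13.2 FPKM in water (0.29, adjusted p = 0.0175). Mknk2 had 28.7 and 26.6 FPKM after 18 h of EGF and 22.7 and 22.96 FPKM in water (0.26, adjusted p = 0.00975). In the Neo line in water Mknk2 had 28.2 and 25.7 FPKM, which overlaps the 18 h libraries. Mknk1 had 12.2 and 12.8 FPKM there, below them. Gspt2, a second eRF3 gene, also rose (0.18, adjusted p = 0.014). Its 9.36 and 9.75 FPKM after 18 h of EGF overlapped the 9.39 and 9.36 FPKM of the Neo line in water. Bzw2 (−0.29, adjusted p = 0.000944), the S6 kinase Rps6kb2 (−0.21, adjusted p = 0.00718) and the mitochondrial elongation factor Gfm1 (−0.18, adjusted p = 0.0119) fell. Between the times, Paip2 (0.21, adjusted p = 0.00624), the deoxyhypusine hydroxylase Dohh that completes the modification of eIF5A (0.18, adjusted p = 0.0174) and Paip2b (0.17, adjusted p = 0.0125) rose. Fmr1 (−0.34, adjusted p = 0.0251), Ddx3x (−0.32, adjusted p = 0.00374), Dph2 (−0.21, adjusted p = 0.00531), of the pathway that makes the diphthamide of eEF2, and the ribosome recycling factor Abce1 (−0.19, adjusted p = 0.00517) fell. In the EGFR line, Ddit3 (0.36, adjusted p = 0.00669), a target of Atf4, and the mitochondrial factor Tsfm (0.16, adjusted p = 0.0264) were higher than in the Neo line, and Gigyf2 (−0.19, adjusted p = 0.0497), a repressor of cap-dependent translation, was lower. The calls of Gigyf2 and Tsfm in this comparison were lost under 13 and 8 of the 17 alternatives (adjusted p up to 0.254 and 0.171). The 18 h changes of Pdcd4 and Bzw2 against water, and those of Pdcd4, Ddx3x, Dph2 and Abce1 between the times, held under all 17. The 18 h rises of Mknk1, Mknk2 and Gspt2 were each lost without water replicate 1. Between the times, the calls of Fmr1, Dohh and Paip2b were each lost without 18 h EGF replicate 1. With scaling to a common sum, Rps6kb2 and Gfm1 lost their calls at 18 h against water. Paip2, Dohh and Paip2b lost theirs between the times under that scaling.

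**Figure D5:**
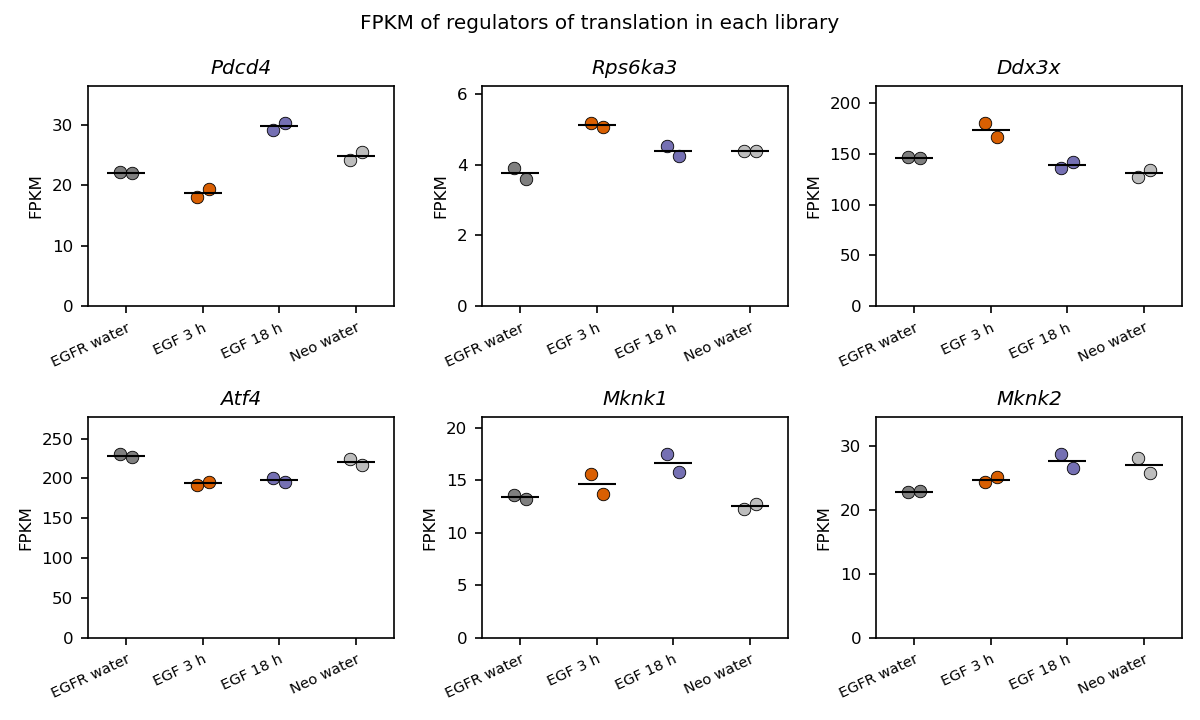
FPKM of 6 regulators of translation in each library (points) with the group mean (line) for EGFR cells in water, after 3 h and after 18 h of EGF, and for Neo cells in water. Pdcd4 is lowest after 3 h of EGF and highest after 18 h, and Mknk1 and Mknk2 are highest on average after 18 h. For Mknk2 the Neo libraries overlap the 18 h libraries.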

How the data were processed

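The authors deposited FPKM on mm10 for 12193 loci in 8 libraries of AtT-20 cells, 2 for each of 4 groups. Tools listed in the submitters' processing notes are DESeq, HTSeq 0.5.4, TopHat2 2.0.8 and Trimmomatic 0.22. No source used here names the program behind FPKM, the strand setting or the depth. FPKM is a relative measure, so abundant transcripts can move others, and the total used to scale each library is not stated.

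The limma-trend test (limma 3.58.1, R 4.3.3) took the 10874 genes that reached 1 FPKM in 2 or more libraries, and ran on log2(FPKM + 1), all 4 groups in the fit, with Benjamini-Hochberg adjustment over all tested genes of a comparison and a threshold of 0.05. Levels are given per library. The test was checked on simulated data. Named were up to 6 called factors a direction with non-overlapping groups, up to 2 a role, fixed key factors in each comparison, and up to 4 a direction of a list of 52 other translation genes; genes named beyond this were chosen after their values were seen. Members and lists were chosen with earlier results of these data known. Copies were found with minimap2 2.31 on GENCODE M21 transcripts, and promoters came from RefSeq. The 17 alternatives are given at the end.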

Additional observations from a re-analysis of the deposited data

Results flagged for a closer look

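The effect of EGF differed between 3 h and 18 h, by the limma test of 18 h against 3 h itself, for 23 of the 65 factors (35.4%, against 33.7% of all tested genes). Higher at 18 h were Eif2ak3 (log2 fold change 0.34), Eef2kmt (0.23), Eef1g (0.19) and Eef2 (0.17). Lower by the largest amounts were Eif5a2 (−0.41), Etf1 (−0.37) and Eif3j2 (−0.26). Smaller decreases were found for Eef1e1 and Eif1b (−0.21 each), for Eif1ad, Eif3j1 and Eif2b1 (−0.20 each), and for Gspt1 and Eif4e (−0.18 each). Eif1a and Eif4a1 had −0.17 each, Eif2s1 and Eif2s3x −0.16 each, Eif2s2 −0.15, Eif4a3 −0.14, Eif2a −0.13, Eif3e −0.12 and Eif4g2 −0.11. Because no water library is labelled 18 h, EGF and time in culture cannot be told apart in these differences.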

How the results depend on the processing

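None of the 57 calls changed sign under any of the 17 alternatives, and 11 held under all of them. Counts of factors called (higher and lower) are given for each comparison, beside 1 and 1 for the EGFR line against the Neo line, 14 and 5 for 3 h of EGF, 4 and 9 for 18 h and 4 and 19 for 18 h against 3 h. With scaling to a common sum they were 1 and 0, 12 and 0, 1 and 0, and 2 and 9. Without the filter on FPKM the EGFR line had 0 lower, with protein-coding genes alone 9 were lower at 3 h, and with only the 2 groups fitted the EGFR line had 0 and 0 and 14 were lower at 18 h. Leaving out single libraries gave 0 to 1 higher and 0 to 2 lower for the EGFR line, 5 to 13 and 0 to 9 at 3 h, 0 to 4 and 1 to 11 at 18 h, and 2 to 6 and 9 to 19 for 18 h against 3 h. For these changes the cause was not tested, beyond the loss of a library where one was left out.

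The replicate number as a block gave 1 and 0, 10 and 5, 3 and 8, and 4 and 19. All genes gave 183 and 199, 1160 and 1922, 1310 and 1879, and 1795 and 1578 with that block. Same-numbered libraries deviated together with correlations of −0.17 to 0.31, so the numbers were not read as pairs. Pseudocount 0.1, FPKM of at least 5, median-ratio scaling and no variance trend kept all counts within 1.5 times. With 2 libraries a group, small differences are uncertain, for genes of high FPKM as for low ones such as the eIF2 alpha kinases.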

Other observations

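The rows left out of the 66 genes because their symbols mark pseudogenes numbered 7, and 5 of them lay under 5 FPKM in every library. Eif3s6-ps2, a copy of Eif3e, was listed at 29.1 to 36.9 FPKM, beside a mean of 101.6 FPKM for Eif3e.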
